A study of Rattus norvegicus with 60 samples.

Results

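The comparison described here set the amygdala of HR rats against the amygdala of LR rats at postnatal day 14 (P14), with 5 arrays per line, 10 of the 60 samples of the study. Arrays were taken by the line, the region (amygdala) and the age in their column names, which matched the sample labels. HR and LR are rat lines bred selectively on a Sprague-Dawley background and studied as a pair of models, HR of low and LR of high anxiety- and depression-like behaviour. All groups used here were male: HR amygdala at P7, P14 and P21, LR amygdala at P7, P14 and P21, and HR and LR prefrontal cortex at P14, with 5 samples each. Each sample was dissected from frozen brain sections 300 µm thick, guided by neighbouring sections of 20 µm stained with cresyl violet. The labels speak of portions of the amygdala, do not name nuclei, and state neither litters nor a link from an array to an animal. Column names also carry codes whose meaning is not stated and which entered no fit: HR arrays 43 and 45 share the first part of theirs, and 9 of the 10 codes recur on a prefrontal array of the same line and age. P-values therefore measure the spread between these samples. RNA was copied to Cy3-labelled double-stranded cDNA and hybridised to one-colour NimbleGen arrays, and the intensities are on a linear scale after RMA (robust multi-array average). Below, a value is this intensity, a difference is HR minus LR on the log2 scale with its standard error (SE), and a row was called at an adjusted p under 0.05 from limma over all 17519 rows.

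HR animals were bred for a high and LR animals for a low locomotor response to a new environment. The amygdala is a group of nuclei in the temporal lobe that attaches emotional value to sensory input and drives autonomic and hormonal responses to threat. Neuropeptides are made as precursors, released from dense-core vesicles and act on G protein-coupled receptors, and several of them, vasopressin and oxytocin among these, are known to modulate amygdala output. The weeks around P14 in the rat are a period of synapse formation, glial maturation and, at first, a low adrenal response to stress.

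HR arrays resembled each other more closely than LR arrays did. The mean correlation of an array with the others of its line was 0.948 to 0.958 in HR and 0.927 to 0.943 in LR, with no overlap. Pearson's correlation between arrays of the same line, across rows, lay between 0.946 and 0.961 in HR and between 0.919 and 0.960 in LR. Median intensity was 66.9 to 71.4 in HR and 61.4 to 70.8 in LR. LR arrays 48 and 47 stood apart with the lowest medians (61.4 and 64.3), and called genes that lost their call without them are marked where they are described. Named genes that lost it without LR arrays 49 and 50 are listed together below. HR arrays carried the numbers 41 to 45 and LR arrays 46 to 50, so line and array number cannot be told apart. Grouping the numbers in runs of 12, an arrangement assumed here, puts LR arrays 49 and 50 in another run than the other 8 arrays. A score taken from the main axis of variation among prefrontal arrays of the same group was -30.9 to -19.2 in HR and -14.5 to -3.11 in LR at P14, with no overlap. The lines did not overlap at P7 (HR -16.6 to -8.57, LR 3.65 to 13.8) or at P21 either (HR 0.80 to 16.7, LR 23.3 to 32.7). A fit that holds the score therefore cannot fully separate it from the line. The part of this axis in the differences below was not tested beyond a fit that held it as a covariate. The intensity of the median row was 64.4. The table carries no detection flags, so values under this level may be background. Markers of amygdala nuclei were present at mixed levels: 13 of 21 measured genes reached the median row in at least one line.

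At P14, 967 of 17519 rows were called (5.52%), 575 higher in HR (3.28%) and 392 lower (2.24%). Differences were larger among the rows that were higher in HR, with a median size of 0.99 on the log2 scale against 0.73 among the rows that were lower. At least a 2-fold difference was found in 284 of the higher and 59 of the lower rows. All 5 HR arrays lay above all 5 LR arrays in 452 rows (2.58%) and below them in 449 rows (2.56%). The balance of directions depended on the setting. Median centring of the arrays gave 480 higher and 578 lower rows, while quantile normalization gave 573 higher and 442 lower. Without arrays 47 and 48 there were 423 higher and 564 lower rows, and testing rows above the median row alone gave 614 higher and 599 lower. With 8 arrays, numbers 41 to 48, fitted alone and so without the P7 and P21 arrays, the count was 64. Without arrays 49 and 50 but with the other ages in the fit it was 496. With the score as a covariate it was 26. Rows with an established gene symbol were called higher in 256 and lower in 302 of 13317 cases, while provisional loci, pseudogenes and rows with no symbol were called higher in 319 and lower in 90 of 4202.

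Of the 74 genes named by rule, 14 kept their call within arrays 41 to 48: Avp, Hlf, Ero1b, Or8c16c, Folr1, Cfap126, Prr32, Rarres2, Dynlrb2, S100b, Sox2, Scn2a, Tesc and Mrpl43. With the score as a covariate 10 kept it: Avp, Gal, Tac1, Cfap44, Folr1, Cfap126, Prr32, S100b, Tesc and Mrpl43. The difference moved by more than 1.5 times with the score in 32 genes, of which 27 came out smaller or reversed and 5 larger. A call could be lost with the score without a smaller difference: Mrgprg was at 1.72 in the main fit and at 1.99 with the score (adjusted p = 0.12). Without LR arrays 49 and 50, 24 of the 74 genes lost their call. Those higher in HR were Cfap44, Dpysl3, Eomes, Fam241b, Fgfr2, Grin1, Lhx6, Nes, Or1o2e, Shank1, Tnpo2 and Zfp319. Those lower in HR were Atp5pb, B3gntl1, Cacng2, Clu, F13b, Hba-a2, Hbb-b1, Mrps18a, Ndufv2, Psmb4, Rplp0 and Tekt2. Leaving out 1 array at a time ended the call in at least 1 of the 10 removals for 18 genes. The call was kept in 2 of the 10 for Atp5pb, Clu, Hba-a2, Mrps18a, Nes and Tekt2, in 3 for Fam241b, Rplp0 and Shank1, in 4 for Psmb4, in 5 for Eomes and Ndufv2, in 7 for Cacng2, F13b and Hbb-b1, in 8 for Lhx6 and in 9 for Cfap44 and Ephb2.

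**Figure D1:**
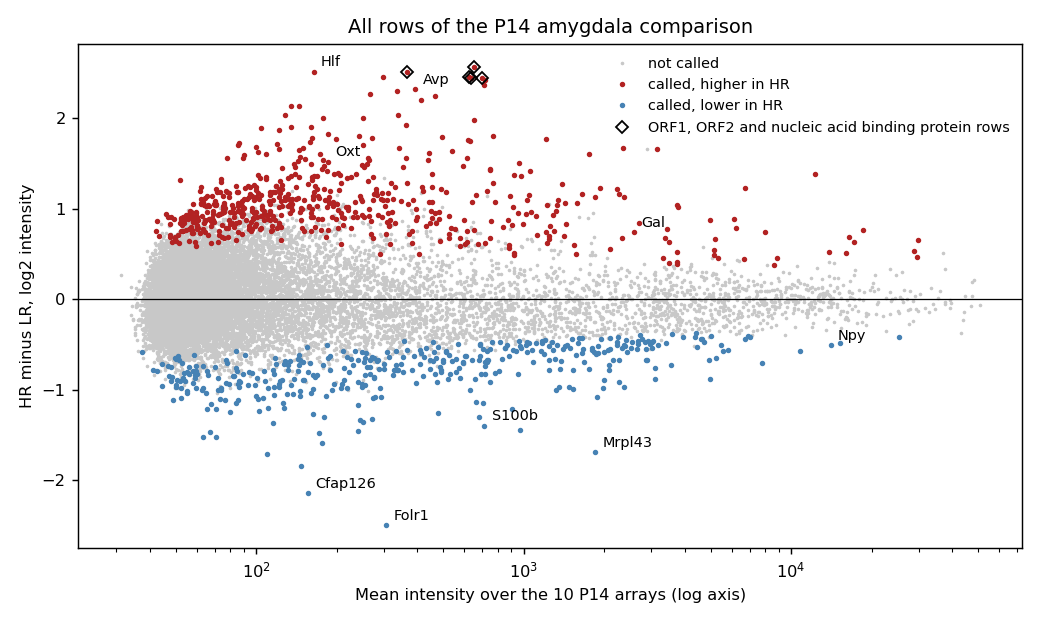
Each point is 1 of the 17519 rows at P14: the x axis is the mean intensity over the 10 arrays (log axis) and the y axis is the HR minus LR difference of log2 intensity. Red points were called higher in HR (575) and blue points lower (392), and the open diamonds are the 5 rows described as ORF1, ORF2 or nucleic acid binding protein, which lie near the top with Hlf and Avp.

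The precursor genes of vasopressin and oxytocin were both higher in HR. Avp encodes the precursor of vasopressin, a peptide hormone of water balance that also acts in the brain on social and anxiety-related behaviour, and Oxt encodes the precursor of oxytocin, its sister peptide of birth, lactation and social bonding. In the rat genome they are neighbours on chromosome 3 (RefSeq, GRCr8) that point toward each other, with 12768 bases between their start sites and 0 protein-coding genes between them. The windows from 250 bases before to 50 bases after each start are shown because the pair moved together. Capitals mark letters of 5 motifs searched on both strands: the E-box CACGTG bound by clock and other helix-loop-helix factors, the nuclear receptor core site AGGTCA, the cyclic AMP response element TGACGTCA, the D-box TTANGTAA and the X-box core GTTGCC. Avp lies at chr3:138248473-138248772 on the minus strand and Oxt at chr3:138235504-138235803 on the plus strand.
Avp: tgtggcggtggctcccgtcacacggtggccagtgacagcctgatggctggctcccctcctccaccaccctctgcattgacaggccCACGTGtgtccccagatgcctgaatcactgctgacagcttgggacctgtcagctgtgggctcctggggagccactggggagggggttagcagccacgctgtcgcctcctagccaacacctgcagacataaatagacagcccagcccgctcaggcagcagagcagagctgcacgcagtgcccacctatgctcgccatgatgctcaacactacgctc
Oxt: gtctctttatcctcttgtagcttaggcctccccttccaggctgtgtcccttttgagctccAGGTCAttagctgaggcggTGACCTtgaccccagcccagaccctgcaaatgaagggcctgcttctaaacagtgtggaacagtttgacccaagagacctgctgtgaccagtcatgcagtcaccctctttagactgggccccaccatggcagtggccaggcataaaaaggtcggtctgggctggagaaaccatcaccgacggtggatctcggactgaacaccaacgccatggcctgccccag
The Avp window held 1 E-box, which began 165 bases before the start, and the Oxt window held 2 nuclear receptor sites, which began 190 and 171 bases before the start on opposite strands. Of 27457 such windows in the table, 6.65% held the E-box and 15.68% the nuclear receptor site on either strand. These matches describe the letters only.

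Avp intensity was 986, 1041, 819.9, 772 and 812 in HR, against 236, 199.7, 134, 176 and 152 in LR. All HR arrays lay above all LR arrays, and the difference was 2.32 ± 0.20 (adjusted p = 2.3e-09), a 5-fold higher level in HR. The call held without arrays 47 and 48 (2.25, adjusted p = 1.65e-07), within arrays 41 to 48 (2.25, adjusted p = 0.0028) and with the score as a covariate (2.04, adjusted p = 0.00224). Oxt intensity was 228, 264, 335, 342 and 447 in HR, against 92.9, 159.7, 142, 65.6 and 114 in LR. Again no HR array overlapped an LR array, with a difference of 1.52 ± 0.22 (adjusted p = 3.74e-05). Fitted on arrays 41 to 48 alone, the Oxt difference was 1.3 and missed the threshold (adjusted p = 0.0732). Without arrays 49 and 50 but with the other ages in the fit, it was also 1.3 and was called (adjusted p = 0.00172). With the score as a covariate the Oxt difference was 0.85 (adjusted p = 0.424).

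Of 16 measured hypothalamic and neurosecretory peptide genes, 3 were higher in HR (Avp, Oxt and Gal), beside 3.28% of all rows, 1 was lower (Pmch), beside 2.24%, and 12 were not called, with a median of 0.07 against 0.01 over all rows. Gal, the galanin precursor gene, had 3490.5, 3153, 3099.7, 3323 and 3636 in HR, against 2027, 2064, 2116, 2051 and 1717 in LR, and the lines did not overlap (difference 0.74 ± 0.13, adjusted p = 0.000596). Pmch, the precursor gene of melanin-concentrating hormone, a feeding and sleep peptide of the lateral hypothalamus, had 237, 134, 160.4, 220.2 and 232 in HR, against 406, 335, 426, 438 and 425 in LR. All HR arrays lay below all LR arrays, with a difference of -1.07 ± 0.21 (adjusted p = 0.00139). The Pmch call was lost in a fit of arrays 41 to 48 alone (-1.01, adjusted p = 0.105) and with the score as a covariate (-0.36, adjusted p = 0.789). It was kept without arrays 49 and 50 when the other ages stayed in the fit (-1.01, adjusted p = 0.0187). Members that were not called included Gnrh1, the precursor gene of gonadotropin-releasing hormone, at 1.03, Crh, the corticotropin-releasing hormone gene, at -0.24, and Hcrt, the orexin precursor gene, at -0.40. Transcription factors that mark the hypothalamus, which lies close to the amygdala, were called in 0 of 14 measured genes, with a median of 0.17 and summed intensities of 1063 to 1252 in HR and 818 to 1176 in LR. Otp, which specifies vasopressin and oxytocin neurons of the hypothalamus, was at 0.64 (120.4 in HR and 77.0 in LR). Whether tissue next to the amygdala had a part in the peptide differences was not tested. In dissected tissue, fewer cells of a type and less RNA per cell cannot be told apart.

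Among 28 other neuropeptide and secretory granule genes, HR exceeded LR in 2 called genes and was below it in 1, while 25 had no call (median 0.04). Of all rows 3.28% were higher and 2.24% lower. Tac1, the substance P precursor gene, had 388, 445, 503, 309 and 464 in HR, against 257, 117, 280.3, 274 and 327 in LR, and the groups overlapped at LR array 50 and HR array 44 (difference 0.81 ± 0.20, adjusted p = 0.014). Nts, the neurotensin precursor gene, had 1073, 639, 852, 784 and 969 in HR, against 643, 433, 407, 553 and 497 in LR, with HR array 42 below LR array 46 (difference 0.77 ± 0.18, adjusted p = 0.00784). Both calls were lost without LR arrays 47 and 48 (Tac1 0.55, adjusted p = 0.0721; Nts 0.60, adjusted p = 0.076). Npy, the neuropeptide Y gene, an anxiety-dampening peptide of amygdala interneurons, was lower in HR in a narrow range of values. Its intensity was 11596, 11141, 12365, 11806 and 12035 in HR, against 18443, 17503, 15028, 16681 and 16140.2 in LR, with no overlap (difference -0.50 ± 0.11, adjusted p = 0.00459). Sst, the somatostatin gene, was at 0.01, Cck at -0.39 and Penk, the enkephalin precursor gene, at 0.34, none of them called. Of 19 measured peptide receptor genes 0 were called, including the vasopressin receptor gene Avpr1a at 0.15 and the oxytocin receptor gene Oxtr at 0.34, and 12 genes of glucocorticoid signalling had 0 calls with a median of -0.17.

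**Figure D2:**
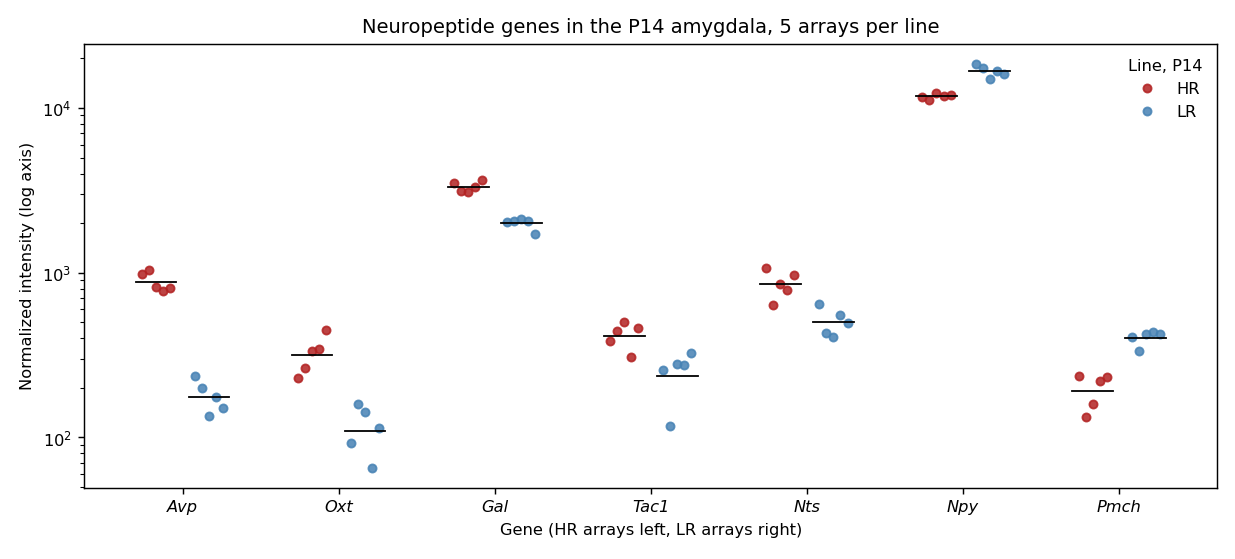
Normalized intensity (log axis) of 7 neuropeptide precursor genes in each P14 array, with the 5 HR arrays in red at the left and the 5 LR arrays in blue at the right of each gene, and black bars at the means of log2 intensity. HR lies wholly above LR for Avp, Oxt and Gal and wholly below it for Npy and Pmch, while the lines overlap for Tac1 and Nts.

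Among genes with an established symbol that were higher in HR, Hlf had the largest difference. It encodes hepatic leukemia factor, a PAR bZIP transcription factor whose family (with Dbp and Tef) binds D-boxes and carries the output of the circadian clock. Intensity was 458, 263, 386, 485 and 413 in HR, against 119.5, 101, 39.4, 61.8 and 51.7 in LR, so that no HR array overlapped an LR array, and the difference was 2.52 ± 0.29 (adjusted p = 1.22e-06). The submitters gave this row the provisional symbol LOC690286, and it was named Hlf here through RefSeq. A second row, which the submitters themselves named Hlf, had 201 in HR and 125 in LR and was not called (0.69 ± 0.28, adjusted p = 0.161). The probes behind both rows are not given in the sources used here. The other 13 measured clock and output genes were not called: Dbp was at -0.31, Tef at 0.03, Per1 at 0.02, Per2 at -0.20, Nr1d1 at 0.60 and Cry1 at 0.53, and the median of the 14 was 0.20. The D-box was found in 4 of 204 promoter windows of genes called higher in HR (1.96%) in 140 of 10028 windows of genes on the amygdala array (1.4%) and in 2.19% of all windows. Within arrays 41 to 48 Hlf was at 2.33, adjusted p = 0.0221, and with the score as a covariate at 1.81, adjusted p = 0.132.

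Of 16 measured genes of the choroid plexus and ependyma, the epithelia that make and move cerebrospinal fluid, 6 were lower in HR, 0 were higher and 10 were not called, beside 2.24% of all rows lower. The median of the list was -0.38, against 0.01 over all rows. Folr1, the folate receptor that carries folate across the choroid plexus, had 159, 113, 127, 117 and 134 in HR, against 849, 615, 554, 746 and 932 in LR. The lines were far apart, with a difference of -2.49 ± 0.20 (adjusted p = 1.13e-09), a 5.63-fold lower level in HR. Cfap126, which encodes Flattop, a protein of motile cilia and basal bodies, had 51.4, 112, 105, 73.2 and 52.3 in HR, against 384, 238, 419, 308 and 325 in LR. The difference was -2.14 ± 0.21 (adjusted p = 7.53e-08). Prr32, a gene known mainly from choroid plexus expression profiles, had 83.5, 71.4, 85.9, 96.8 and 57 in HR, against 223, 352, 334, 354 and 182 in LR (difference -1.84 ± 0.20, adjusted p = 5.55e-07). For all 3 genes no HR array overlapped an LR array, and the calls held within arrays 41 to 48 and with the score as a covariate, where Folr1 was at -1.66. Prr32 and Cfap126 had been placed in the list with their values known, so they add nothing independent to its count or median. Without them 4 of 14 genes were lower and the median was -0.32, but the list as a whole was also chosen with earlier results of these data known.

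Rarres2, the chemerin gene, was between 467 and 798 in HR and between 1093 and 1598 in LR (difference -1.21 ± 0.17), and Igfbp2, a growth factor binding protein of choroid plexus and meninges, was between 394 and 555 in HR and between 688 and 1268 in LR (difference -1.14 ± 0.19). Kcnj13, a potassium channel of the choroid plexus, averaged 52.3 in HR and 113 in LR (difference -1.11). Several defining markers did not pass the test. Ttr, the transthyretin gene and the best-known choroid plexus transcript, averaged 38098 in HR and 49102 in LR (difference -0.37, adjusted p = 0.118), Kl was at -0.08, Aqp1 at 0.37 and Foxj1, the master regulator of motile cilia, at 0.36. Summed over the 16 genes, intensity was 38608 to 41715 in HR and 50053 to 55504 in LR, and Ttr made up most of this sum. Genes of the motile cilium were called in both directions, beside 2.24% of all rows lower and 3.28% higher. Of 23 measured, 2 were lower (Cfap126 and Tekt2, a tektin gene, at -0.71), 1 was higher (Cfap44 at 0.88, not called without arrays 47 and 48, adjusted p = 0.0564) and 20 were not called, with a median of -0.11. The HR values of Tekt2 and the LR mean of Cfap44 (42.9) lay below the median row. Dynlrb2, a dynein light chain gene outside these lists, was between 112 and 179.6 in HR and between 282 and 461 in LR (difference -1.45 ± 0.24, adjusted p = 0.00025). Whether choroid plexus carried along in the dissection had a part in these values was not tested.

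**Figure D3:**
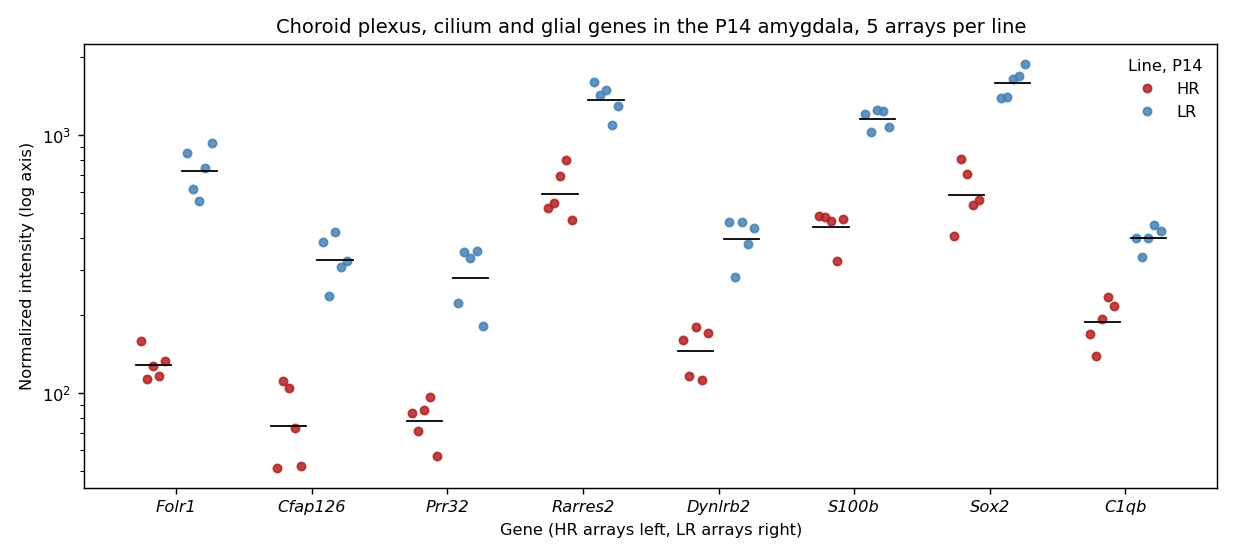
Normalized intensity (log axis) of 8 genes in each P14 array, with the 5 HR arrays in red at the left and the 5 LR arrays in blue at the right of each gene, and black bars at the means of log2 intensity. HR lies wholly below LR for all 8 genes: the choroid plexus and cilium genes Folr1, Cfap126, Prr32, Rarres2 and Dynlrb2, the astrocyte gene S100b, Sox2 and the complement gene C1qb.

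Astrocyte genes were called in 3 of 20 measured cases, all lower in HR (median -0.12), beside 2.24% of all rows lower. S100b, a calcium-binding protein of astrocytes, had 486, 479.7, 463, 326 and 470.5 in HR, against 1211, 1022, 1253, 1243 and 1073 in LR (difference -1.39 ± 0.15, adjusted p = 4.05e-07). The lines did not overlap, and the call held within arrays 41 to 48 (-1.40) and with the score as a covariate (-1.24). Apoe, the apolipoprotein E gene, differed by -0.65 ± 0.13 and Clu, the clusterin gene, by -0.52 ± 0.16, and the Clu call was lost without arrays 47 and 48 (adjusted p = 0.183). Defining astrocyte genes were not called: Aldh1l1 was at 0.10, Aqp4 at 0.29 and Gfap, with intensities under the median row in both lines, at -0.05. Sox2, a transcription factor of neural stem cells and of glia, had 404, 806, 704, 534 and 562 in HR, against 1390.2, 1405, 1648, 1699.7 and 1881 in LR (difference -1.45 ± 0.19, adjusted p = 8.99e-06), again with no overlap. Among 15 progenitor and cell cycle genes Vim, the vimentin gene, was also lower (-1.03 ± 0.20), and Nes, the nestin gene, was higher (0.82 ± 0.25), a call lost without arrays 47 and 48 (adjusted p = 0.252).

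Of 15 microglia genes 2 were lower in HR, beside 2.24% of all rows, both encoding chains of the complement protein C1q, which tags synapses for removal. C1qb was between 139 and 236 in HR and between 338 and 447 in LR, with no overlap (difference -1.09 ± 0.20, adjusted p = 0.00101), and C1qc differed by -0.80 ± 0.19. C1qa, which encodes the remaining chain, was at -0.47 and Trem2 at -0.60, neither of them called, and Aif1 was at 0.18. Of 12 blood cell genes 4 were lower, beside the same 2.24%, all of them globins: Hba-a3 differed by -1.70 ± 0.28 (means 60.9 in HR and 198 in LR), Hbb by -0.48 ± 0.12, Hbb-b1 by -0.47 ± 0.12 and Hba-a2 by -0.42 ± 0.13. With the score as a covariate Hba-a3 was at -0.45 (adjusted p = 0.785), and in a fit of arrays 41 to 48 alone it was not called (-1.32, adjusted p = 0.115). It was called without arrays 49 and 50 when the other ages stayed in the fit (-1.32, adjusted p = 0.0135). Hbb and Hba-a2 were not called without arrays 47 and 48 (adjusted p = 0.0534 and 0.145), and globin copies are so alike that probes may not separate them. Summed intensity of the blood cell genes was 57239.5 to 65816 in HR and 75357 to 84992 in LR. The myelin list had 1 of 21 genes called, Qdpr, a pteridine reductase gene, at -0.67, with a list median of 0.08. Oligodendrocyte precursor genes (0 of 6) and endothelial and mural genes (0 of 10) had no calls.

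Neuronal genes differed singly and in both directions. The counts of called genes that follow stand beside 3.28% of all rows higher in HR and 2.24% lower. Scn2a, which encodes the voltage-gated sodium channel Nav1.2, had 388, 241, 356, 276 and 309 in HR, against 711, 689, 818, 699.7 and 773 in LR, with all HR arrays below all LR arrays (difference -1.25 ± 0.15, adjusted p = 1.97e-06), the only call among 24 ion channel genes. Cplx2, a complexin gene of vesicle release, was between 364 and 507 in HR and between 841 and 1022 in LR (difference -1.0 ± 0.15), the only call among 20 synaptic vesicle genes. Of 25 glutamate signalling genes Grin1, the obligatory NMDA receptor subunit, was higher (1.05 ± 0.22, means 89.3 in HR and 43 in LR), as was Shank1, a postsynaptic scaffold (1.03 ± 0.31), while Cacng2, which encodes stargazin, was lower (-1.0 ± 0.28). Without LR arrays 49 and 50 none of the 3 was called: Grin1 was at 0.76 (adjusted p = 0.0796), Shank1 at 0.65 (adjusted p = 0.331) and Cacng2 at -0.49 (adjusted p = 0.364). Cacng2 had 145 and 217 on those arrays and 49.1 to 103 on the other LR arrays. LR means of Grin1 and the HR mean of Cacng2 lay below the median row. None of 14 GABA, 22 monoamine and acetylcholine or 17 immediate early genes was called. Of 21 genes that mark amygdala nuclei 2 were higher: Lhx6, a transcription factor of interneurons and medial amygdala cells, by 0.84 ± 0.22 (means 72.2 in HR and 40.3 in LR), and Ppp1r1b, which encodes DARPP-32, by 1.14 ± 0.27. The Lhx6 call was lost without arrays 49 and 50 (adjusted p = 0.0796), and its LR mean lay below the median row. A second Ppp1r1b row was at 0.66 and not called, and without arrays 47 and 48 the first was not called either (adjusted p = 0.0714).

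Genes of growing neurons were split: Gap43, the growth-cone protein gene, was between 120.5 and 203 in HR and between 278 and 422 in LR (difference -1.16 ± 0.17) and Tubb3, a neuronal tubulin gene, differed by -0.78 ± 0.19. Eomes and Dpysl3 were higher by 0.96 ± 0.26 and 0.94 ± 0.21, with LR means of 40.8 and 40.5, below the median row. Tesc, which encodes the calcium-binding protein tescalcin, was called on both of its rows. The first had 346, 342, 519, 463 and 558 in HR, against 1258, 1034, 981, 1055 and 1043 in LR (difference -1.29 ± 0.15, adjusted p = 1.8e-06) and the second differed by -1.15 ± 0.16. Ephb2, an ephrin receptor gene of axon guidance, was higher by 1.05 ± 0.26 (adjusted p = 0.134 without arrays 47 and 48), and Fgfr2 by 0.81 ± 0.20, not called without arrays 47 and 48 (adjusted p = 0.0788), with a second Fgfr2 row at -0.36 that was not called. The LR mean of Ephb2 was 44.3, below the median row.

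Lists of energy and protein synthesis genes had few calls in each, beside 3.28% of all rows higher and 2.24% lower. Mrpl43, a protein of the large mitochondrial ribosomal subunit, had 1262, 1009, 1088, 986 and 861 in HR, against 3807, 3348, 4015, 2985 and 2654 in LR, with no overlap (difference -1.69 ± 0.13, adjusted p = 6.6e-10), a 3.22-fold lower level in HR. Of 67 mitochondrial ribosomal genes 4 were lower (Mrpl43, Mrps5, Mrps18a and Mrps23, with Mrps18a not called without arrays 47 and 48, adjusted p = 0.0959), 1 was higher (Mrps2, 1.03 ± 0.24, with a second row at 0.66 that was not called) and 62 were not called, with a median of -0.22. The LR mean of the called Mrps2 row was 46.6, below the median row. Of 38 glycolysis and tricarboxylic acid cycle genes 2 were lower, the dehydrogenase genes Gapdh (-0.67 ± 0.14) and Mdh2 (-0.67 ± 0.13), 30 had a difference below 0 and the median was -0.27. Oxidative phosphorylation had 4 of 65 genes lower, among them Atp5f1b of ATP synthase (-0.84 ± 0.15), with a median of -0.05, and Atp5pb and Ndufv2 were not called without arrays 47 and 48 (adjusted p = 0.192 and 0.0925). Cytosolic ribosomal proteins had 2 of 66 lower (Rpsa -0.59 ± 0.12 and Rplp0 -0.48 ± 0.13, the second not called without arrays 47 and 48, adjusted p = 0.0865), and the proteasome list 2 of 36 (Psmb6 -0.80 ± 0.13 and Psmb4 -0.62 ± 0.17, which was -0.39, adjusted p = 0.27, without arrays 49 and 50). The histone deacetylase gene Hdac5 was lower (-0.67 ± 0.14), 1 of 26 genes of histone and DNA methylation enzymes. The heat shock, lipid synthesis and antigen presentation lists had 0 calls in 22, 21 and 21 genes.

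**Figure D4:**
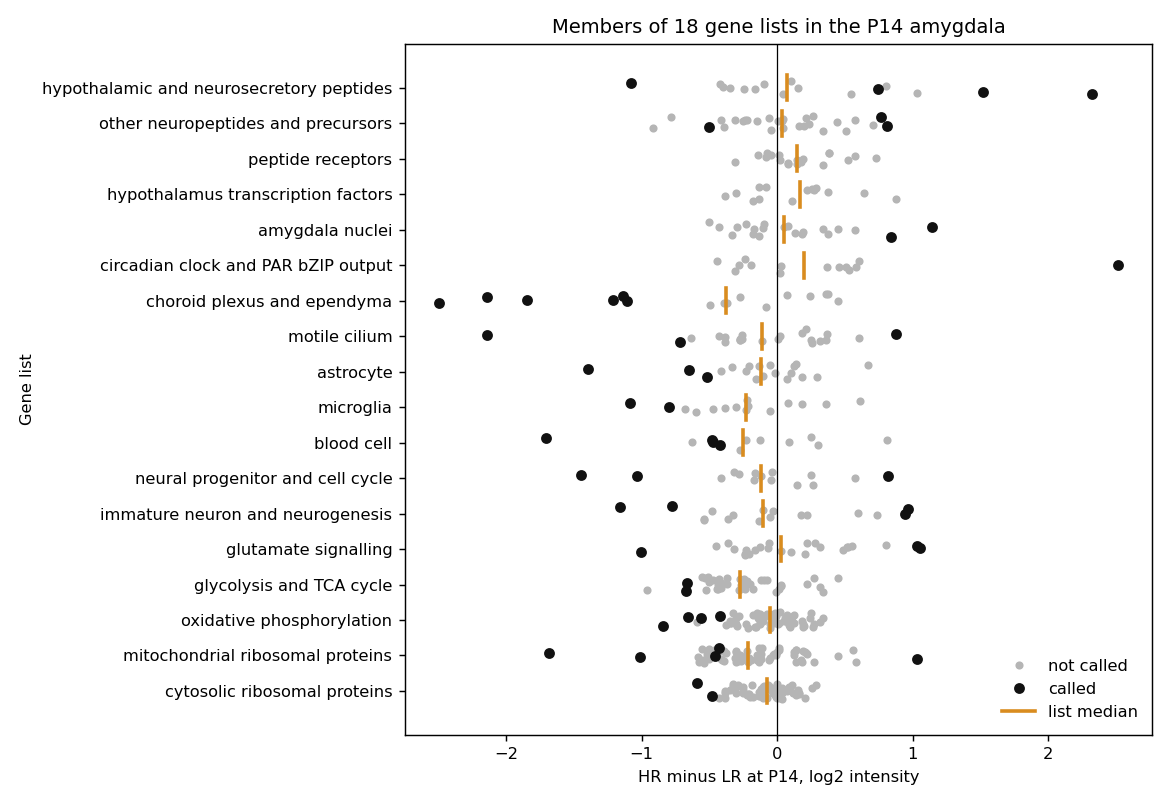
Each point is a measured member of 1 of 18 gene lists at P14, placed by its HR minus LR difference of log2 intensity (x axis). Black points were called, grey points were not, and orange bars are the list medians, with the choroid plexus and ependyma list at -0.38 (-0.32 without Prr32 and Cfap126, which were placed in it with their values known).

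A set of rows with no established symbol stood among the largest differences. The table describes 5 rows as similar to ORF1, as similar to ORF2 or as nucleic acid binding protein (loci LOC362308, LOC360689, LOC499531, LOC498973 and LOC501503). ORF1 and ORF2 are the names of the reading frames of LINE-1 retrotransposons, mobile elements with many near-identical copies in the rat genome, and the descriptions do not name the element. The set was picked after its values had been seen. All 5 rows were higher in HR, by 2.44 to 2.57, and no HR array overlapped an LR array in any of them. LOC362308, described as ORF1, had 1593, 1291, 1665, 2285 and 1471 in HR, against 389, 295, 322, 258 and 253 in LR (difference 2.44 ± 0.18, adjusted p = 1.37e-10). LOC360689, described as ORF2, had 680.3, 767, 896, 1321 and 844 in HR, against 238, 257, 79.1, 187 and 95.9 in LR (difference 2.51 ± 0.24, adjusted p = 4.08e-08). The 3 rows described as nucleic acid binding protein had means between 1471 and 1583 in HR and between 267 and 272 in LR. Probes for such copies may share sequence, so the 5 rows are not independent measurements. All 5 were called within arrays 41 to 48 (highest adjusted p = 0.0293) and with the score as a covariate (1.80 to 2.48, highest adjusted p = 0.0407). Line differences of these rows were -0.32 to 0.06 at P7 and 2.38 to 2.57 at P21. In the prefrontal cortex at P14 they were 1.61 to 2.18 and not called.

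The remaining named genes with large differences belonged to none of the lists above or stood alone in theirs. Zfp319, a zinc finger gene, had 587, 1421, 1096, 1057 and 1138 in HR, against 628, 859, 273, 35.1 and 88.6 in LR, and the LR values spread over more than an order of magnitude (difference 2.25 ± 0.54, adjusted p = 0.0112). A second Zfp319 row was at 0.31 and not called, and the first lost its call in a fit with the run of array numbers as a block (0.95, adjusted p = 0.0973). Ero1b, an oxidase of the endoplasmic reticulum that forms disulphide bonds in secreted proteins, had 279, 346, 292, 217 and 222 in HR, against 114, 69.5, 107, 62.0 and 78.2 in LR (difference 1.67 ± 0.23, adjusted p = 1.82e-05), with no overlap. Sap30, a subunit of a histone deacetylase complex, differed by 1.78 ± 0.29, Calcb, a calcitonin gene-related peptide gene, by 1.69 ± 0.28, Mrgprg, an orphan receptor gene, by 1.72 ± 0.30, and Tnpo2, a nuclear import receptor gene, by 1.58 ± 0.34. LR means of Calcb (55.5) and Mrgprg (47.5) lay below the median row. The olfactory receptor genes Or1o2e (1.83 ± 0.41, and 1.22, adjusted p = 0.114, without arrays 49 and 50) and Or8c16c (1.60 ± 0.28) belonged to a family with 22 rows called higher and 4 lower of 314, beside 3.28% and 2.24% of all rows. Runx1, a transcription factor of blood development, was between 187 and 357 in HR and between 60.5 and 164 in LR (difference 1.49 ± 0.32), and Fam241b was between 124 and 374 in HR and between 46.3 and 202 in LR (difference 1.37 ± 0.39, not called without arrays 47 and 48, adjusted p = 0.0816, and -0.14 with the score as a covariate). Ms4a6c was between 1413 and 2396 in HR and between 809 and 1165 in LR (difference 1.06 ± 0.16, second row -0.11 and not called), and Potem, of an ankyrin-repeat family, differed by 1.5 ± 0.24.

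Among the lower genes, Tspan18, a tetraspanin gene, differed by -1.52 ± 0.28 (means 37.3 in HR and 107 in LR) and B3gntl1, a glycosyltransferase-like gene, by -1.46 ± 0.34 (means 40.5 in HR and 111 in LR). F13b, the B subunit gene of coagulation factor XIII, had 36.9, 38.8, 84.2, 34.9 and 30.2 in HR, against 65, 63.5, 44.2, 379 and 355 in LR, so its difference (-1.52 ± 0.39, adjusted p = 0.0188) rested on LR arrays 49 and 50. Within arrays 41 to 48 it was -0.44, adjusted p = 0.573, and its second row was at 0.37.

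To ask whether a line difference belonged to P14, the P14 difference was set against the mean of the P7 and P21 differences in the same fit, a contrast called in 354 rows, 242 above 0 (1.38%) and 112 below 0 (0.639%). Of the 967 rows called at P14, 211 were called in the same direction at P7 and 16 in the opposite one, beside 8.97% of all rows called at P7. At P21, 287 were called in the same direction and 40 in the opposite one, beside 9.62% of all rows. The same direction was called at all 3 ages in 75 (23 higher and 52 lower in HR). Of all rows 2.5% were called higher and 6.47% lower at P7, and 5.47% and 4.15% at P21. A further 497 of the 967 were called at neither other age. A call at one age alone does not show that ages differ, and the contrast was called for 192 of the 967. In 190 of these the P14 difference went further in its own direction than the mean of the other ages. Rows called at P14 were picked by that difference, which is part of the contrast, so this direction was largely set in advance. The count also does not show that the P14 difference was the largest of the 3 ages. With the array run as a block, P14 arrays being compared within a run of 12 array numbers, the contrast was called in 32 rows. At P21 that fit set the HR arrays against LR array 36 alone, because the other LR arrays of that age lie in another run. Without the block, the contrast was called in 584 rows without arrays 47 and 48 and in 154 without arrays 49 and 50.

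Avp differed by 0.27 ± 0.20 at P7, by 2.32 ± 0.20 at P14 and by 0.67 ± 0.20 at P21 (contrast 1.85, adjusted p = 7.95e-05), and the contrast held with the array run as a block (1.42, adjusted p = 0.0155). Oxt differed by 0.54 ± 0.22 at P7, by 1.52 ± 0.22 at P14 and by 0.30 ± 0.22 at P21 (contrast 1.10, adjusted p = 0.0252), but with the block the contrast was not called (0.70, adjusted p = 0.499). Hlf differed by 0.05 ± 0.29 at P7, by 2.52 ± 0.29 at P14 and by 1.45 ± 0.29 at P21 (contrast 1.77, adjusted p = 0.00667; 1.22, adjusted p = 0.305 with the block). Ero1b, called at P14 alone, differed by 0.06 ± 0.23 at P7, by 1.67 ± 0.23 at P14 and by -0.60 ± 0.23 at P21 (contrast 1.94, adjusted p = 0.000221; 1.23, adjusted p = 0.0537 with the block). Cfap126 differed by -1.33 ± 0.21 at P7, by -2.14 ± 0.21 at P14 and by -0.22 ± 0.21 at P21 and Scn2a by 0.21 ± 0.15 at P7, by -1.25 ± 0.15 at P14 and by -0.53 ± 0.15 at P21, and both contrasts held with the block (-1.58, adjusted p = 0.0352; -1.08, adjusted p = 0.0457). Pmch ran the other way, with its smallest difference at P14: it differed by -2.82 ± 0.21 at P7, by -1.07 ± 0.21 at P14 and by -3.08 ± 0.21 at P21 (contrast 1.88, adjusted p = 8.86e-05; 2.03, adjusted p = 0.00302 with the block). In all, 4 of the 22 named genes with a called contrast kept it with the block: Avp, Cfap126, Pmch and Scn2a. The P21 part of that fit rests on LR array 36, so a kept or lost contrast may reflect that array. Gal was higher in HR at every age, by 0.67 ± 0.13 at P7, by 0.74 ± 0.13 at P14 and by 0.61 ± 0.13 at P21, and S100b was below LR at every age, with differences of -1.19 ± 0.15 at P7, -1.39 ± 0.15 at P14 and -1.26 ± 0.15 at P21. Folr1 differed by -2.68 ± 0.20 at P7, by -2.49 ± 0.20 at P14 and by -0.90 ± 0.20 at P21 and Sox2 by -1.49 ± 0.19 at P7, by -1.45 ± 0.19 at P14 and by -1.97 ± 0.19 at P21. Potem was higher in HR at P14 and P21 but not called at P7, differing by 0.21 ± 0.24 at P7, by 1.5 ± 0.24 at P14 and by 3.23 ± 0.24 at P21.

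**Figure D5:**
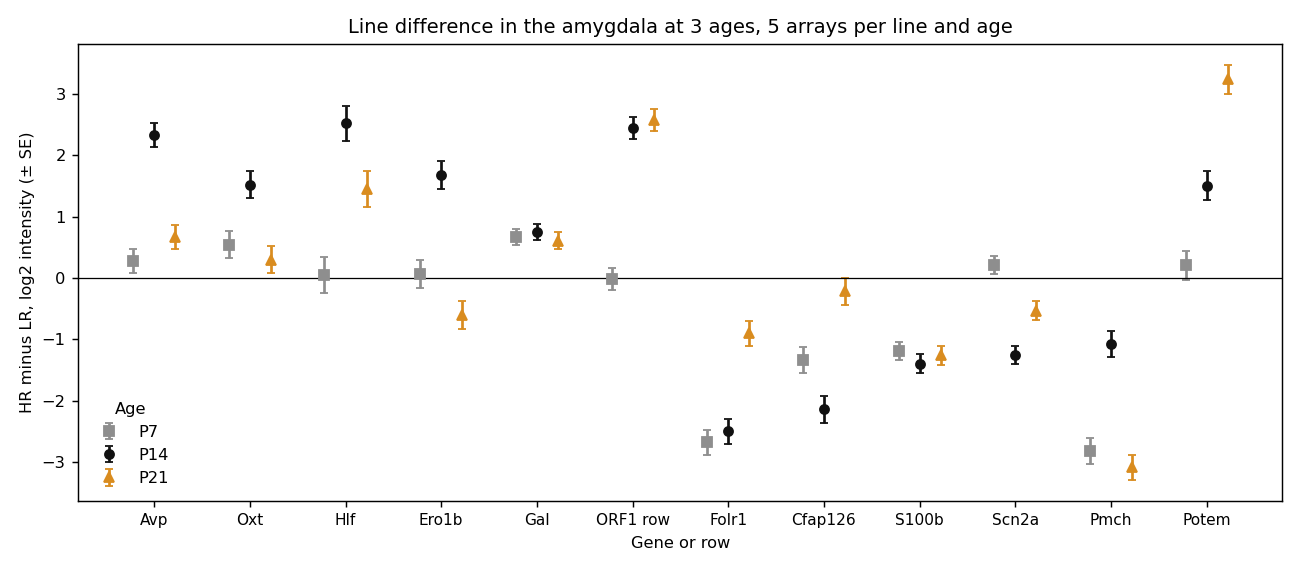
HR minus LR difference of log2 intensity (y axis, ± SE) in the amygdala at P7 (grey squares), P14 (black circles) and P21 (orange triangles) for 11 genes and the LOC362308 row described as ORF1, with 5 arrays per line and age. Avp, Oxt and Ero1b stand highest at P14, Gal and S100b lie close together at the 3 ages, and Pmch lies nearest to 0 at P14.

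The prefrontal cortex of the same lines and age, from a table normalized separately, was set beside the amygdala without a test between regions. Of 18564 prefrontal rows 0 were called at P14 by limma, and 1017 (5.48%) had an unadjusted p under 0.05. Of the 967 rows called in the amygdala 933 were measured there, and 466 had the same sign. Prefrontal differences were -0.49 ± 0.32 for Avp, 0.78 for Oxt, 0.34 ± 0.53 for Hlf and -0.01 ± 0.39 for Folr1. They were 0.55 ± 0.43 for Gal, -0.75 for S100b, -1.21 ± 0.53 for Mrpl43 and -1.52 ± 0.56 for Hba-a3, and none of these genes was called. Where an SE is given here, it was larger than the amygdala SE of the same gene. The lack of calls therefore does not show that the lines were alike in this region.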

How the data were processed

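Expression was measured on one-colour NimbleGen arrays of 30 amygdala and 30 prefrontal cortex samples of male HR and LR rats. The authors deposited 1 table of linear normalized intensity for each region. RMA is named in the submitters' processing notes, without a version. The background, probe summary and build behind these intensity values are not given in the sources used here.

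Of the amygdala table, 17519 rows were used after 1046 blank lines were left out. Rows were named by gene ID or accession through RefSeq genes of assembly GRCr8 (13441 rows), otherwise by the file's symbol (3267), and 811 had none. Column names gave line, region, age and an array number but no replicate number. Log2 was taken of every intensity, and limma (version 3.58.1, R 4.3.3) fitted 1 mean to each of the 6 amygdala groups, with moderated variances and Benjamini-Hochberg adjustment over all rows. The prefrontal table (18564 rows) was fitted apart. Mean intensities are 2 to the power of the mean log2 value. Precision is limited by 5 arrays per line, and the fit had 24 residual degrees of freedom. The scripts were tested on simulated data.

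Genes were named by rule from rows with an established symbol: the 10 largest called differences in each direction in rows at or above the median row, the 6 smallest adjusted p in each direction, up to 4 called members of each list, and the 6 largest called contrasts with the other ages, with every row of a gene given. This gave 74 genes, of which 1 enters the counts but is not reported here. The rule also admitted genes called in the prefrontal cortex with the same sign, of which 0 existed. List values used the row of a gene with the highest mean. Genes, lists and alternatives were chosen with earlier results of these data known. Alternatives were other normalizations, a pseudocount of 32, a filter on dim rows, array weights, the run of 12 array numbers and the replicate number as blocks, a score of the prefrontal arrays as a covariate, and leaving out arrays. The runs of 12 are an arrangement assumed here and not stated in the labels. Promoter windows came from RefSeq (GRCr8), which held 62 of the 74 genes.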

Additional observations from a re-analysis of the deposited data

Results flagged for a closer look

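For 22 of the 74 named genes the line difference at P14 differed from the mean of those at P7 and P21 (limma contrast, adjusted p under 0.05). Of all rows, 1.38% had a called contrast above 0 and 0.639% below 0. The named genes were chosen by their P14 calls, and 6 were admitted by this contrast itself, so their share cannot be read against that of all rows. The contrast was 1.852 for Avp, 1.77 for Hlf, 1.102 for Oxt and 1.603 for Calcb among peptide and clock genes, and 1.942 for Ero1b, 1.294 for Sap30, 1.644 for Mrgprg, 2.029 for Runx1, 1.918 for Fam241b, 3.096 for Zfp319, 2.48 for Or1o2e, 1.492 for Or8c16c, 1.4 for Ephb2 and 0.9771 for Dpysl3. It was 1.877 for Pmch, whose line difference was below 0 at all 3 ages and closest to 0 at P14. Contrasts below 0 were -1.363 for Cfap126, -2.005 for F13b, -1.089 for Scn2a, -0.804 for Tesc, -0.5961 for Apoe and -0.4915 for Npy. With the array run as a block, where the P21 difference rests on LR array 36, 4 of the 22 were called. Without LR arrays 49 and 50, 9 were.

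A sample stood apart from the other 4 arrays of its line, by the 95% critical value of Dixon's ratio on log2 values, in 9 of 148 groups, and chance gives about 1 in 20. In HR these were Cacng2 on array 45 (30.1, the others 56.37 to 62.88), F13b on array 43 (84.16, the others 30.24 to 38.82), Fgfr2 on array 41 (81.14, the others 131.6 to 145.8), Mdh2 on array 44 (783.1, the others 1035 to 1058), S100b on array 44 (325.7, the others 463.2 to 485.7) and Tekt2 on array 45 (28.16, the others 35.95 to 38.01). In LR they were Gal on array 50 (1717, the others 2027 to 2116), Pmch on array 47 (335, the others 406.2 to 438.4) and Tac1 on array 47 (116.6, the others 257.4 to 327.5). Leaving out array 47 alone kept the Tac1 call, and leaving out arrays 47 and 48 did not.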

How the results depend on the processing

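At P14 the 967 calls (575 higher, 392 lower) became 263 (183 and 80) with only the P14 groups fitted, 64 (51 and 13) with arrays 41 to 48, 26 (16 and 10) once the component score entered as a covariate and 496 (310 and 186) without LR arrays 49 and 50. Rows lower in HR numbered 599 among rows above the median row, 239 with the array run as a block and 594 without LR arrays 36, 47 and 48. Centring gave 480 higher and 578 lower. Leaving out 1 array gave 633 (without LR array 50) to 1023 calls, 376 to 675 higher and 257 to 432 lower. The contrast with the other ages, 354 calls, gave 548 with trend and robust moderation and 32 with the run block, which rests on LR array 36 at P21. It gave 584 without arrays 47 and 48, 154 without 49 and 50, 764 without 36, 47 and 48, and 231 (without array 49) to 487 leaving out 1 array. Of the 74 named genes, calls held in 70 with quantile normalization, 72 with centring, 39 with only the P14 groups, 56 with the run block, 14 with arrays 41 to 48, 10 with the score, 59 without arrays 47 and 48, 50 without 49 and 50, and 59 to 69 leaving out 1 array. Fam241b turned to -0.1442 with the score. List medians moved with the run block for hypothalamic peptides (0.2781), glucocorticoid (0.06085), motile cilium (0.07617), microglia (-0.4917), immediate early (0.149) and axon guidance genes (0.2046), and with centring for other neuropeptides (-0.02629), astrocyte (-0.1819), oxidative phosphorylation (-0.1132), ribosomal (-0.1401) and proteasome genes (-0.2299). Without arrays 47 and 48 they moved for hypothalamic peptides (-0.06865), other neuropeptides (-0.05339), choroid plexus (-0.5018), astrocyte (-0.2146), myelin (-0.0998), endothelial (-0.1887), hypothalamus factor (0.01489), synaptic vesicle (-0.2023), glycolysis (-0.3874) and antigen presentation genes (-0.1059). The cause of these changes was not tested. Where arrays were left out, the smaller number of arrays and the loss of those particular arrays were not told apart. With the replicate number as a block, from the sample columns of the value table, 877 rows were called (531 higher and 346 lower). Same-numbered samples correlated at -0.0275 to 0.0321 and 1 of 5 correlated best with its own number. What else they may share is not stated in the labels and cannot be read from these values.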

Other observations

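Among provisional loci, pseudogenes and rows with no symbol, 7.59% were called higher and 2.14% lower in HR, beside 1.92% and 2.27% of rows with an established symbol. Olfactory receptor rows had 22 called higher and 4 lower of 314, beside 3.28% and 2.24% of all rows. With arrays 41 to 48, 44 of the 51 rows called higher in HR were provisional loci, pseudogenes or rows with no symbol.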
